A study of Mus musculus with 4 samples.

Results

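Vim, Nes, Fabp7, Slc1a3, Ednrb, Ptn and Foxj1, genes in wide use as marks of radial glia and of tanycytes, were followed through single cells of the developing arcuate nucleus (ARC) of the mouse hypothalamus. They are 7 of the 27998 genes listed in the deposited counts, taken by name, and all 7 passed the limit on rarely detected genes. Their levels were read in 4 kinds of cell defined by other genes: Sox2-positive cells with Rax or Nkx2-1 (hypothalamic progenitors below), Sox2-positive cells with Barhl2 or Rgs13, cycling cells with at least 3 UMIs of Mki67 and Top2a together, and neurons with at least 2 UMIs of Stmn2. A unique molecular identifier (UMI) counts 1 captured RNA molecule, and 1 UMI was enough for each of the other genes. The embryos were C57BL/6 mice carrying Pomc-eGfp, aged E15 by one label and E15.5 by their titles. GFP served to find the region to cut from the ventral hypothalamus and did not select cells, and the tissue of 6 embryos was combined before papain digestion. All cells thus come from 1 library read in 4 sequencing runs, with no second group, no replicate and no link from a cell to its embryo. No test, p-value or standard error can be had, and every interval below is a 95% interval for counting error alone.

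Radial glia are the stem cells of the embryonic brain. Their cell bodies line the ventricle, a long process reaches the outer surface, and they divide to give neurons first and glia later. In the hypothalamus some of them turn into tanycytes, elongated cells of the third ventricle's floor and lower walls that carry signals between the fluid of the brain and the blood. Vimentin and nestin build the intermediate filaments of such cells, Fabp7 carries fatty acids, Slc1a3 takes up glutamate, Ednrb receives endothelins, Ptn is a secreted growth factor and Foxj1 switches on genes of motile cilia.

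The 6351 cells kept held between 1748 and 16836 UMIs, with a median of 3338. The label calls the cells ARC neurons, and 4006 of them met the neuron gate. The hypothalamic progenitor gate took in 918 cells, of which 594 also had 2 or more Stmn2 UMIs, so most of that gate as stated were cells with neuronal RNA. Unless stated otherwise, groups hold only cells that met exactly 1 of the 4 gates and no gate for endothelial, mural, fibroblast, macrophage or pituitary cells. Cells that met a pair of gates were used for the cycling hypothalamic progenitors, the steps by Stmn2 UMIs and the neurons with Sox2. These were 258 hypothalamic progenitors with a median of 2539.5 UMIs, 66 Barhl2/Rgs13 progenitors with 3541, 46 cycling cells with 4467 and 3321 neurons with 3292. Levels are a gene's pooled UMIs in a group over all UMIs of that group, scaled to CPM. The gates held against genes they did not use: Sox9, Hes1, Hes5, Sox3 and Notch1 summed to 1301 CPM in the hypothalamic progenitors, 1240.1 in the Barhl2/Rgs13 progenitors and 66.1 in the neurons, whereas 5 neuronal genes (Tubb3, Elavl3, Map2, Snap25, Syt1) summed to 821, 415 and 3671 CPM. Cycling cells that met no other gate also held RNA of all 5 oligodendrocyte precursor genes looked at, 731 CPM in sum against 49.1 in the hypothalamic progenitors, with Olig1 at 407 and Pdgfra at 128 CPM, and the part of such cells in the values of the cycling group was not tested. The 4 astrocyte genes summed to 53.6 CPM in the hypothalamic progenitors and 11.0 in neurons, with S100b at 27.4, Aqp4 at 13.7 and Aldh1l1 at 12.6 CPM in the former and Gfap at 0. The 8 ependymal genes looked at summed to 169 CPM in them, with Mcidas, Ccdc153 and Tmem212 at 0, against 25.1 in neurons, 18.3 in the cycling cells and 14.9 in the Barhl2/Rgs13 progenitors.

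By the GENCODE vM21 annotation of GRCm38, the assembly also called mm10, each of the 7 is a protein-coding gene on a chromosome of its own. Vim lies at chr2:13573927-13582826, Nes at chr3:87971078-87980451 and Fabp7 at chr10:57784881-57788450, all on the plus strand. Slc1a3 lies at chr15:8634124-8710764, Ednrb at chr14:103814625-103844402, Ptn at chr6:36714929-36810220 and Foxj1 at chr11:116330704-116335399, all on the minus strand. Slc1a3 overlaps another annotated locus of the same strand, so its counts could miss reads shared with it. The RefSeq promoter table of the same build (GRCm38.p6), which spans 250 bases before to 50 after a start, matched 6 of the 7. The promoters of Slc1a3 and Ptn are shown because these genes lay farthest apart between the progenitor groups, and those of Fabp7 and Vim because most cells of both groups held their RNA. Each reads from 5′ to 3′ on the gene's own strand, at chr15:8710758-8711057 on the minus strand for Slc1a3, chr6:36810130-36810429 on the minus strand for Ptn, chr10:57784673-57784972 on the plus strand for Fabp7 and chr2:13574061-13574360 on the plus strand for Vim. Capitals mark matches, on either strand, to the letters CCAAT (a common promoter box), TATAAA (the TATA box), GGGCGG (the GC box), ACAAT (a short core of sites for Sox factors) and GTGGGAA (a core of sites for the Notch partner Rbpj).
Slc1a3: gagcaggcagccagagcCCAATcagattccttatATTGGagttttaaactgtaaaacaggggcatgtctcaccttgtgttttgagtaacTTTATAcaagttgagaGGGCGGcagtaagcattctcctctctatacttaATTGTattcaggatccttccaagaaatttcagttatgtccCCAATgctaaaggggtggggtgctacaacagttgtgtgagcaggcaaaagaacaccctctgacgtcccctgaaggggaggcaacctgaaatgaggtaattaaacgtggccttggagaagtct
Ptn: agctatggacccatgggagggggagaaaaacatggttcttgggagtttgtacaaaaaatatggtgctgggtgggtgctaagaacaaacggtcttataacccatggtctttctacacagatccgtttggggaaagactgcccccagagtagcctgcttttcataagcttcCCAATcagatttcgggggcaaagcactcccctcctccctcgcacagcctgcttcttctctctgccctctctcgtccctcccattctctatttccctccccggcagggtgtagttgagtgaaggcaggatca
Fabp7: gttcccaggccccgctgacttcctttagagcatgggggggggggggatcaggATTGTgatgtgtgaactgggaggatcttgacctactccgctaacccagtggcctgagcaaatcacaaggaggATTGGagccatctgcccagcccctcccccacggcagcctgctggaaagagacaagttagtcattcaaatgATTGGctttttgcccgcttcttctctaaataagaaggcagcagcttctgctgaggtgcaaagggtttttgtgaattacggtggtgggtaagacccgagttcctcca
Vim: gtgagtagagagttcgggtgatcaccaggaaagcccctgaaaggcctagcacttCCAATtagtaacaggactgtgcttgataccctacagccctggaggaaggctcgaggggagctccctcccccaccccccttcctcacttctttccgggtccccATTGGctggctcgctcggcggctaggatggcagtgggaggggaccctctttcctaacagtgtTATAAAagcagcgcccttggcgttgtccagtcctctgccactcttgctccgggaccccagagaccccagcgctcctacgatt
The CCAAT letters were found in 5 of the 6 promoters, in 3 places for Slc1a3, in 2 each for Vim, Fabp7 and Ednrb, in 1 for Ptn and in none for Nes, against 37.4% of all 32851 promoters of the table. ACAAT lay in those of Nes, Fabp7 and Slc1a3 (31.0% of all), TATAAA in those of Vim and Slc1a3 (13.6%), GGGCGG in those of Nes and Slc1a3 (35.7%) and GTGGGAA in none (6.38%). Counted from the start, the TATAAA letters of Vim began at position -32, and those of Slc1a3 lay on the opposite strand between -161 and -156. No match overlapped another. Letters in a window are a description and not a bound site.

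Vim, which codes for the filament protein of radial glia and of many mesenchymal cells, was at similar levels in the progenitor groups and about 12 times lower in neurons. Its level was 1592 CPM (1510 to 1678) in the hypothalamic progenitors, 1573 CPM (1426 to 1730) in the Barhl2/Rgs13 progenitors and 1348 CPM (1198 to 1510) in the cycling cells, and 132 CPM (126 to 139) in the neurons. A UMI of Vim was found in 84.1% of the hypothalamic progenitors (79.1 to 88.3) and in 26.0% of the neurons (24.6 to 27.6). Vim was not limited to neural cells, since endothelial cells held 1622 CPM (1448 to 1811), mural cells 792 and fibroblasts 721, each read in cells that met the gate of that type. In the whole hypothalamic gate, neuronal cells included, the pooled level of Vim was 632 CPM. Nes, the nestin of neural stem cells, was likewise lower in neurons than in all progenitor groups, at far fewer counts. It stood at 115 CPM (93.9 to 140) from 101 UMIs in the hypothalamic progenitors, at 78.4 CPM (48.6 to 120) in the Barhl2/Rgs13 progenitors and 95.9 CPM (59.4 to 147) in the cycling cells, all with overlapping intervals, and at 7.0 CPM (5.57 to 8.68) in the neurons. Endothelial cells held 82.1 CPM of Nes and mural cells 66.0. Of the 11 other intermediate filament and lamin genes looked at, 8 had enough UMIs to be compared between hypothalamic progenitors and neurons. Synm, a partner of vimentin and nestin, was 9.02-fold higher in the progenitors and Lmna 4.07-fold higher, whereas the neurofilament genes Ina, Nefl and Nefm were lower by 17.5-fold, 21.5-fold and 6.84-fold.

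Fabp7, the brain fatty acid binding protein, was high in all progenitor groups but not evenly over their cells. It reached 2650 CPM (2438 to 2874) in the cycling cells and 2342 CPM (2162 to 2533) in the Barhl2/Rgs13 progenitors, whose intervals overlap, and 1451 CPM (1372 to 1533) in the hypothalamic progenitors, below both. In the neurons it was 65.1 CPM (60.6 to 69.9). Fabp7 UMIs were found in 89.4% of the Barhl2/Rgs13 progenitors (79.4 to 95.6) but in 55.0% of the hypothalamic progenitors (48.7 to 61.2), and with all cells thinned to 2167 UMIs the shares were 84.6% and 49.5%, with 1 and 68 shallower cells left out. The cell with the most Fabp7 was a cycling cell with 163 UMIs. Its relative Fabp5, the epidermal form, had another pattern, 5.50-fold lower in hypothalamic progenitors than in neurons. Fabp3, the heart form, was 10.7-fold lower. Fabp3 met the UMI minimum only through the neurons, where it was high, so its ratio is a single value and not read as a pattern. The other 3 fatty acid binding genes looked at had too few UMIs to be compared.

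Slc1a3, the glutamate transporter GLAST, was higher in the hypothalamic than in the Barhl2/Rgs13 progenitors among cells of 1 gate. It stood at 271 CPM (237 to 307) in the hypothalamic progenitors, 210.1 CPM (154 to 280) in the cycling cells and 48.6 CPM (25.9 to 83.0) from only 13 UMIs in the Barhl2/Rgs13 progenitors. With the gates as stated it was at 93.0 CPM (84.0 to 103) in the first of these groups and 63.5 CPM (46.5 to 84.7) in the second, less than 2-fold apart. Neurons held 5.73 CPM (4.45 to 7.27), with a UMI in 1.48% of the cells against 40.3% of the hypothalamic progenitors. The 213 Sox2-positive cells that met no gate held 239 CPM (203 to 280), an interval that overlaps that of the hypothalamic progenitors. Outside the neural cells fibroblasts held the most, 82.2 CPM (59.9 to 109.9). Of 7 other genes of glutamate uptake and use, 6 could be compared between hypothalamic progenitors and neurons, but only 2 of the 6 reached 20 UMIs in the progenitors, so that their counts are not read against the 17.7% of all genes at least 2-fold higher and the 18% lower. The neutral amino acid carrier Slc1a4 was 2.56-fold higher. The transporters Slc1a1 and Slc1a5 had 0 UMIs in the progenitors and Slc1a6 had 2, and the intervals of these 3 ratios reach past 0. Slc1a2, the GLT-1 transporter of mature astrocytes, was lower there, at 14.8 against 56.3 CPM. Glul, the glutamine synthetase of glia, was 1.92-fold higher.

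Ednrb, the endothelin receptor type B, was a low gene, with 310 UMIs in all 6351 cells. It was at 86.8 CPM (52.3 to 136) in the cycling cells and 65.1 CPM (49.3 to 84.3) in the hypothalamic progenitors, whose intervals overlap, and at 14.9 CPM (4.07 to 38.3) from 4 UMIs in the Barhl2/Rgs13 progenitors. In the neurons 21 UMIs gave 1.77 CPM (1.10 to 2.71). The endothelin genes themselves were close to absent from the hypothalamic progenitors, with 1 UMI each of Edn1 and Edn2 among 258 cells. Of the 2 converting enzymes that release active endothelin, Ece1 was 2.59-fold higher than in neurons and Ece2 1.37-fold higher.

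Ptn, pleiotrophin, was lower in the hypothalamic progenitors than in the other progenitor groups, as Fabp7 was, but by far more. Its level was 8311 CPM (7969 to 8664) in the Barhl2/Rgs13 progenitors and 4650 CPM (4369 to 4945) in the cycling cells, but 654 CPM (602 to 710) in the hypothalamic progenitors, not far from the 348 CPM (337 to 359) of the neurons. The median Barhl2/Rgs13 progenitor held 30.5 Ptn UMIs, the median hypothalamic progenitor 1 and the median neuron 0. Cells that met none of the 4 gates nor another also held much of it, 2726 CPM in the 213 with Sox2 and 1776 CPM in the 745 without, and fibroblasts held 1119 CPM. Among the 9 partners of pleiotrophin looked at, 8 could be compared with neurons. The receptor Ptprz1 was 7.92-fold higher in hypothalamic progenitors, at 291 CPM, and 172 CPM in the Barhl2/Rgs13 progenitors, 4.67-fold above neurons. Mdk, the related growth factor midkine, was 6.65-fold and 11.4-fold higher than in neurons in the same order. The surface proteoglycan Sdc3 was lower than in neurons in both groups, by 3.42-fold and 3.53-fold.

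Foxj1, the ciliary transcription factor, was rare everywhere and highest in the hypothalamic progenitors, with 83.3 CPM (65.3 to 105) from 73 UMIs in 18.6% of the cells (14.0 to 23.9). The Barhl2/Rgs13 progenitors held 18.7 CPM (6.06 to 43.6) from 5 UMIs, the cycling cells 13.7 CPM (2.83 to 40.05) from 3 and the neurons 3.29 CPM (2.34 to 4.496). The 213 Sox2-positive cells of no gate held 60.6 CPM (43.1 to 82.9), an interval that overlaps that of the hypothalamic progenitors. No Foxj1 UMI was found in 109 fibroblasts, where 3 counts would be 5.48 CPM, or in 27 endothelial cells, where they would be 15.4 CPM. The 258 hypothalamic progenitors, a small part of the 6351 cells, held 28.9% of all Foxj1 UMIs, against 23.2% of those of Slc1a3 and 3.12% of those of Ptn.

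**Figure D1:**
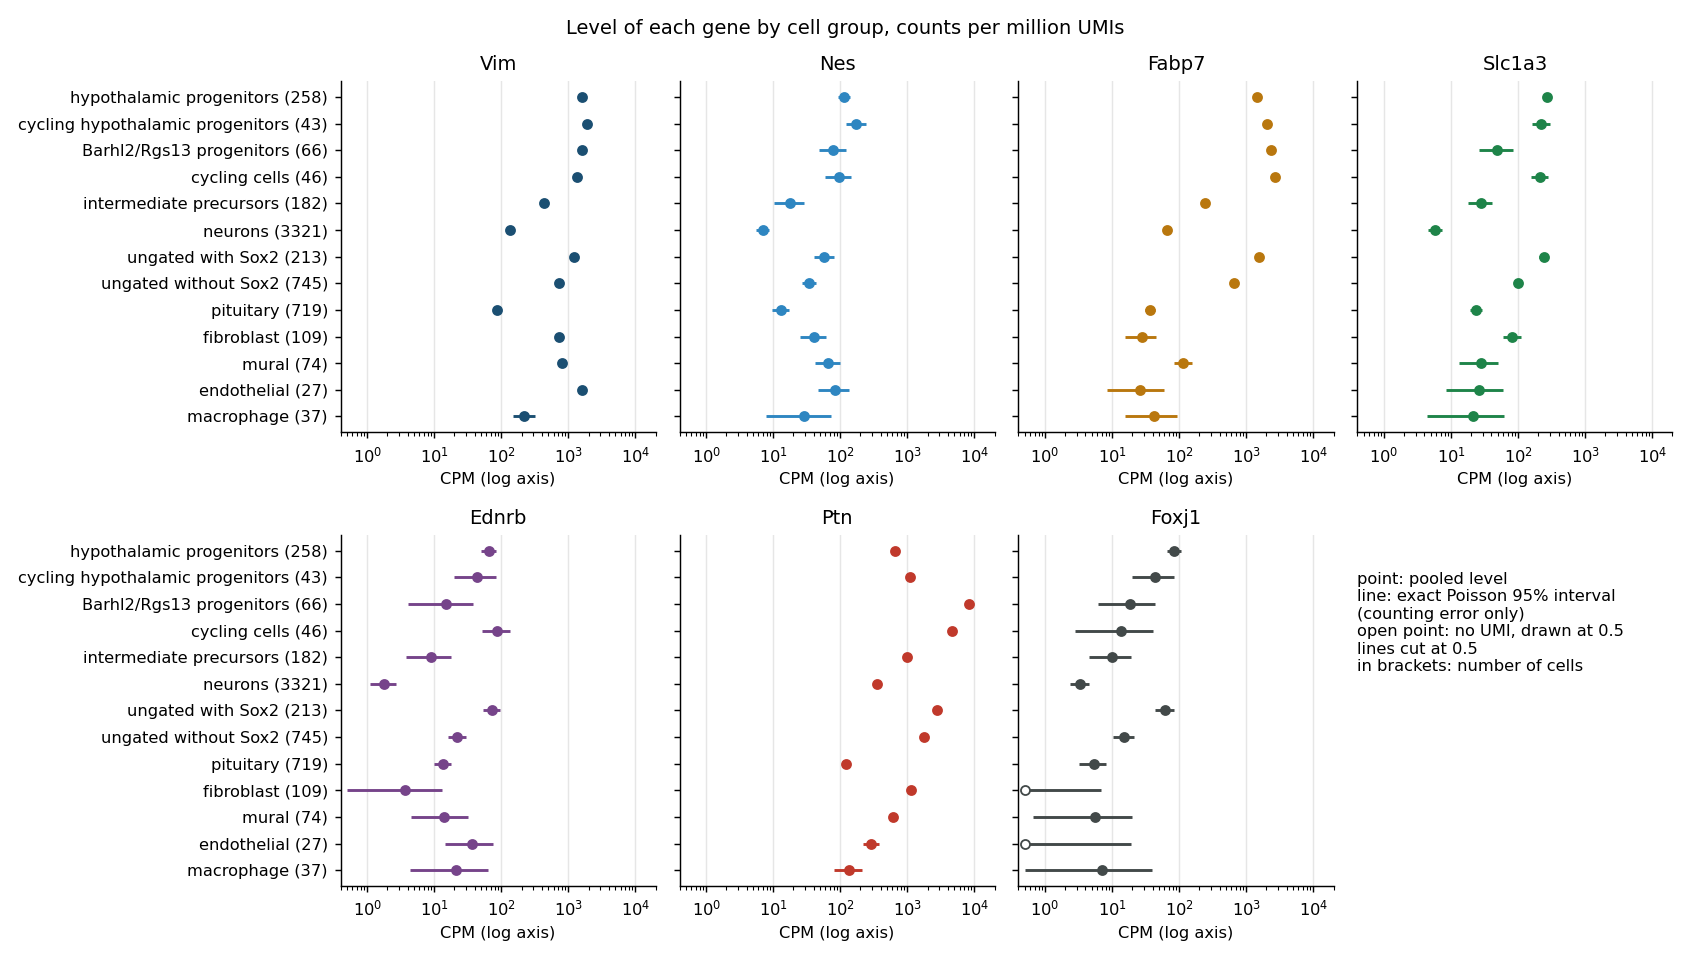
Pooled level of each gene in CPM (log axis) in 13 groups of cells, with exact Poisson 95% intervals for counting error and the number of cells in brackets. Slc1a3 and Foxj1 are highest in the hypothalamic progenitors (271 and 83.3 CPM), with intervals that overlap those of other groups. For Slc1a3 these are the ungated cells with Sox2 (239 CPM), cycling hypothalamic progenitors (222) and cycling cells (210), and for Foxj1 the former 2 (60.6 and 43.4). Ptn is highest in the Barhl2/Rgs13 progenitors (8311 CPM), and Vim is as high in endothelial cells (1622 CPM) as in progenitors.

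Free RNA in droplets can give UMIs to cells that do not make a gene. The 37 macrophages, with a median of 3000 UMIs, served as a reference for this, except for Vim, which macrophages make themselves. Of these 37, 3 also met the hypothalamic progenitor gate, 3 the neuron gate and 2 the cycling gate, so that the reference is not free of such cells. In them a UMI was found in 21.6% of cells for Vim, 10.8% for Nes, 13.5% for Fabp7, 8.11% for Slc1a3, 8.11% for Ednrb, 10.8% for Ptn and 2.70% for Foxj1. The neurons' shares of Nes (2.50%), Slc1a3 (1.48%), Ednrb (0.542%) and Foxj1 (1.14%) lay below these and cannot be told from background by share alone. For Ednrb the neurons' interval (0.322 to 0.855) lay wholly below that of the macrophages (1.70 to 21.9). The macrophages' values can therefore exceed the level of free RNA, and an overlap with them does not make a gene's UMIs background. The neurons' share of Fabp7 (10.5%) lay below as well, and 2.47% of the neurons held 2 or more Fabp7 UMIs against 2.70% of the macrophages. The most in a cell was 62 among the 3321 neurons and 2 among the 37 macrophages, groups of unlike size. For Slc1a3 0.391% of the neurons held 2 or more UMIs, up to 4. No macrophage held more than 1, but 37 cells are too few to show so small a share. The source of these UMIs was not tested. The neurons' share of Ptn, 39.9%, lay above the macrophages' interval of 3.03 to 25.4. The hypothalamic progenitors' intervals lay wholly above those of the macrophages for Fabp7, Slc1a3 and Ptn, and overlapped them for Nes, Ednrb and Foxj1. By level, Nes at 115 CPM (93.9 to 140) and Foxj1 at 83.3 CPM (65.3 to 105) lay wholly above the macrophages as well, at 28.5 CPM (7.76 to 72.9) and 7.12 CPM (0.180 to 39.7), while Ednrb at 65.1 CPM (49.3 to 84.3) overlapped their 21.3 CPM (4.40 to 62.4). In cells thinned to 2167 UMIs, with 68 hypothalamic progenitors left out, shares were 80.0% for Vim, 53.2% for Ptn, 49.5% for Fabp7, 33.7% for Slc1a3, 23.2% for Nes, 15.8% for Foxj1 and 11.6% for Ednrb. The macrophages' thinned shares were 8.82% (1.86 to 23.7) for both Nes and Ednrb and 2.94% (0.0744 to 15.3) for Foxj1. Their intervals overlapped those of the hypothalamic progenitors for these genes, which could not be told apart by share at this depth.

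Against neurons, 6 of the 7 genes were at least 2-fold higher in the hypothalamic progenitors, a step that 17.7% of the 12234 genes compared reached. The order was Slc1a3 at 47.2-fold (log2 ratio 5.56, 5.17 to 5.97), Ednrb at 36.7-fold (5.20, 4.45 to 6.00), Foxj1 at 25.3-fold (4.66, 4.08 to 5.26), Fabp7 at 22.3-fold (4.48, 4.35 to 4.61), Nes at 16.5-fold (4.04, 3.61 to 4.48) and Vim at 12.02-fold (3.59, 3.48 to 3.69). With each gate as stated the differences were smaller, though at least 2-fold for the same 6: Slc1a3 was at 3.09, Ednrb at 2.80, Foxj1 at 2.69, Fabp7 at 2.597, Nes at 2.31 and Vim at 1.88 on the log2 scale. The intervals of neighbours in this order overlap, so that the order of any adjacent pair is not fixed. Slc1a3 was the 36th highest ratio of all genes and Vim the 291st. Ptn, at 1.88-fold (0.91, 0.78 to 1.04), was 2374th, and passed 2-fold with stricter gates (1.19), as a mean over cells (1.03) and over totals without mitochondrial, ribosomal protein and globin genes (1.02), but not with the gates as stated (0.40) or in thinned cells (0.83). In the Barhl2/Rgs13 progenitors all 7 were at least 2-fold higher than in neurons, as were 14.5% of 11986 genes. Fabp7 was there the 14th highest at 36.0-fold, Ptn the 37th at 23.9-fold, Vim 11.9-fold, Nes 11.2-fold, Slc1a3 8.47-fold, Ednrb 8.44-fold and Foxj1 5.68-fold. In the cycling cells all 7 passed as well, beside 19.7% of 12040 genes, with Ednrb at 49.0-fold and Fabp7 at 40.7-fold, although 1 of the 46 cells held 163 of the 580 Fabp7 UMIs and the interval of Foxj1, from 3 UMIs, held 0 (2.06, -0.28 to 3.71). These comparisons share the same neurons. Of 24 further genes of radial glia and progenitors, 22 could be compared between hypothalamic progenitors and neurons, 18 of them with 20 UMIs in the progenitors alone and 20 in the neurons alone, and 18 were at least 2-fold higher and 2 lower, with a median log2 ratio of 3.501 against 0.04 for all genes. Among the 18 were the Notch effector Hes1 (32.4-fold), Sox9 (19.2-fold) and Dbi, the acyl-CoA binding protein (18.3-fold). The 2 lower were Pax6 and Slc1a2.

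**Figure D2:**
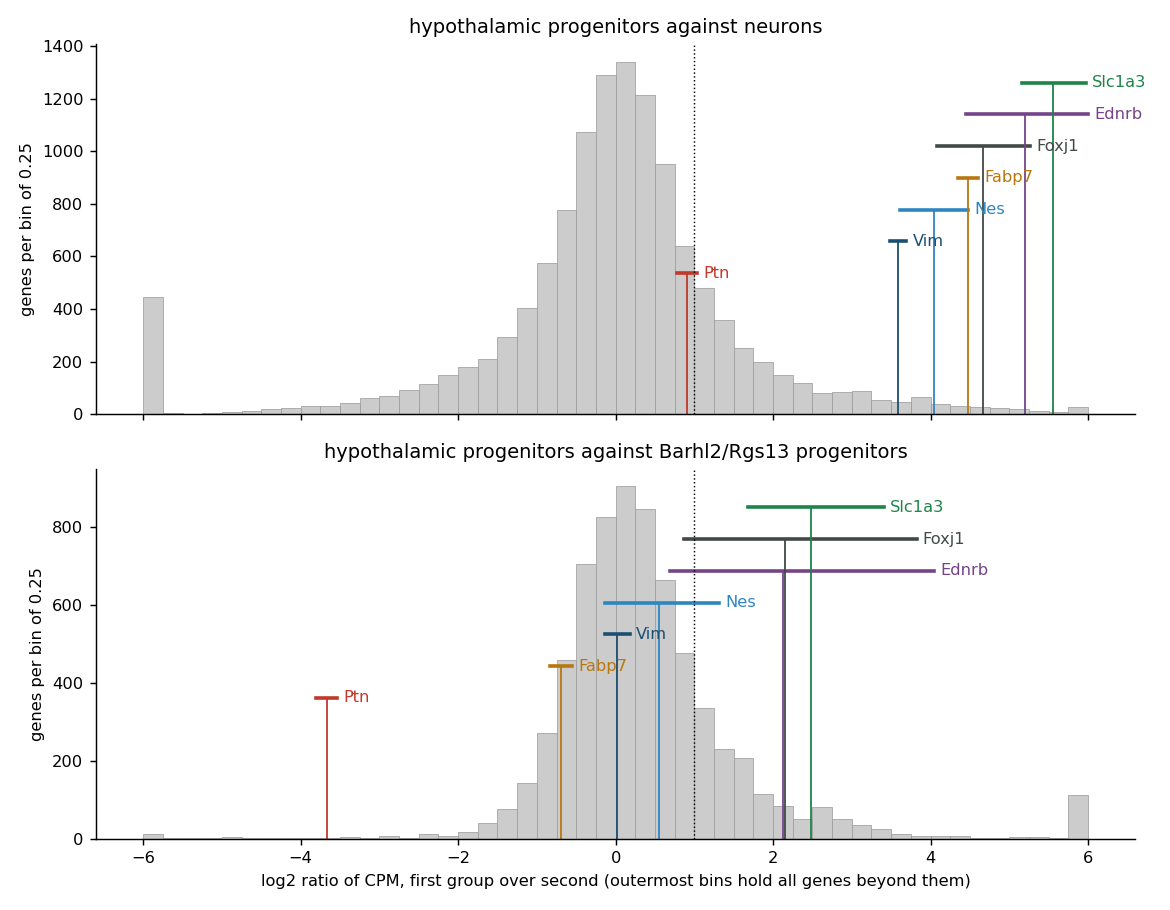
Number of genes (vertical axis) by log2 ratio of CPM, with coloured stems for the 7 genes and horizontal lines for their 95% intervals, and the dotted line at 2-fold. Against neurons (top) 6 genes lie far in the right tail and Ptn at 0.91; against the Barhl2/Rgs13 progenitors (bottom) Slc1a3 (2.48) and Ptn (-3.67) lie on opposite sides, and Ednrb, Vim and Nes there changed sign with the gates as stated.

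The 2 Sox2-positive groups differed in which of the genes they held. Slc1a3 and Foxj1 were higher in the hypothalamic progenitors, Ptn was far higher in the Barhl2/Rgs13 progenitors, and Vim did not differ beyond counting error between cells of 1 gate. Only the difference in Ptn was at least 2-fold both in cells of 1 gate and with each gate as stated. The log2 ratio of hypothalamic to Barhl2/Rgs13 progenitors was 2.48 for Slc1a3 (1.68 to 3.41, 5.57-fold), 2.16 for Foxj1 (0.87 to 3.82, 4.46-fold) and 2.12 for Ednrb (0.69 to 4.05), at least 2-fold higher each. Of all 6871 genes 20.1% were, but these 3 reached 20 UMIs only through the hypothalamic progenitors, so that their count is not read against that share. Ptn, at -3.67 (-3.80 to -3.53, 12.7-fold lower), was the 31st lowest of all, and 5.04% of genes were at least 2-fold lower. Fabp7 was 1.61-fold lower (-0.69, -0.83 to -0.55), Vim was at 0.02 (-0.14 to 0.18) and Nes at 0.56 (-0.13 to 1.31), so that a difference in Nes was not detectable at this depth. The ratio of Ednrb rests on 4 UMIs, and its direction turned with the gates, to -0.58 with each gate as stated and to -0.66 with stricter gates. With the gates as stated, which keep neuronal cells, Slc1a3 and Foxj1 were at 0.55 and 0.32 and Ptn at -3.64, while Fabp7 (-1.72), Nes (-1.15) and Vim (-1.13) were then at least 2-fold lower. The count of 4 genes past 2-fold was the same there, but of other genes. Nes was at -0.34 with stricter gates. The thinned shares went the same way as the levels: Slc1a3 was found in 33.7% of hypothalamic progenitors (27.0 to 40.9) against 7.69% (2.54 to 17.0), and Ptn in 53.2% (45.8 to 60.4) against 98.5% (91.7 to 100).

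Genes linked to Foxj1 and to cilia, and genes of tanycytes, are given here as single values. A gene had to reach 20 UMIs over both groups, and only 1 of the 7 ciliary and 3 of the 14 tanycyte genes that did so reached 20 in the smaller Barhl2/Rgs13 group, so that most passed through the group where they were high and their count in each direction is not read. Tekt1, a tektin of motile cilia, stood at 52.5 against 3.74 CPM, the latter from 1 UMI, and Rfx3, a regulator of ciliary genes, at 122 against 56.0 CPM. Pifo and Dynlrb2 had 36 and 24 UMIs against none. Rspo3, a secreted activator of Wnt signalling, ran the other way, at 3.42 against 848 CPM, and Igfbp5, an insulin-like growth factor binding protein, was at 159 against 168 CPM. Gpr50, an orphan receptor of tanycytes, had 66 UMIs against none, Col25a1, a membrane collagen, had 148 against 1, and Fgf10, a growth factor of tanycytes, had 130 against none.

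Cycling and non-cycling hypothalamic progenitors differed by less than 2-fold in each of the 7 genes, though Ptn, Fabp7 and Vim were higher in the cycling cells beyond counting error. There were 43 cells that also met the cycling gate, with a median of 4216 UMIs, beside the 258 that did not. Over all 6752 genes, 6.83% were at least 2-fold higher and 14.1% lower in the cycling cells. Ptn was 1.67-fold higher (0.74, 0.51 to 0.96), Nes 1.51-fold (0.59, 0.00 to 1.15), Fabp7 1.42-fold (0.50, 0.34 to 0.66) and Vim 1.18-fold (0.24, 0.08 to 0.40), where 1 of the 43 cells held 67 of the 390 Vim UMIs. Foxj1 was at -0.94 (-2.13 to 0.06), Ednrb at -0.58 (-1.78 to 0.44) and Slc1a3 at -0.29 (-0.77 to 0.18), intervals that hold 0 and also reach past 2-fold for the first 2. Foxj1 in the cycling cells rested on 9 UMIs, 43.4 CPM (19.9 to 82.4). The count of genes past 2-fold was between 1 and 5 under 6 of the other settings tried, and 3 at a 1.5-fold limit. With the gates as stated all 7 were higher in the cycling cells, Slc1a3 turning to 1.08, Ednrb to 0.53 and Foxj1 to 0.44, and with stricter gates Vim turned to -0.37. Among ciliary genes, which reached 20 UMIs mainly through the larger non-cycling group, Tekt1 was at 4.83 CPM in the cycling cells against 52.5, and Pifo and Dynlrb2 had 0 UMIs against 36 and 24. Summed oligodendrocyte precursor genes were at 251 CPM in the cycling cells and 49.1 in the rest, and their part in these values was not tested.

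Rax-positive hypothalamic progenitors, 99 cells with a median of 3182 UMIs, were set against the 159 Rax-negative ones, with 2380, which by the gate all held Nkx2-1. Fabp7 was at 946 CPM (858 to 1042) with Rax and 1961 CPM (1832 to 2097) without, 2.07-fold lower (-1.05, -1.22 to -0.88), and 5.17% of 5995 genes were at least 2-fold lower and 4.82% higher. The shares of cells with Fabp7 were 53.5% (43.2 to 63.6) and 56.0% (47.9 to 63.8), which overlap, and 44.6% and 53.3% in thinned cells with 16 and 52 left out. Its relative Fabp5 was lower with Rax too (-1.43, -2.13 to -0.78), as was Ptprz1 (-1.31, -1.72 to -0.91). Slc1a3 (-0.83, -1.23 to -0.44) and Ednrb (-0.90, -1.77 to -0.08) leaned the same way, Vim leaned the other way (0.30, 0.15 to 0.46), and the intervals of Foxj1 (-0.62), Nes (0.30) and Ptn (0.22) held 0. These directions were not stable. With the gate as stated all 7 genes were higher with Rax, Fabp7 turning to 1.34, Slc1a3 to 1.49, Ednrb to 1.48 and Foxj1 to 1.35. Fabp7 was under 2-fold as a mean over cells (-0.61), in thinned cells (-0.51) and at 5% mitochondrial UMIs (-0.94), where Ednrb (-1.01) passed in its place. Depth moved with it, though not step by step. The 86 hypothalamic progenitors with the most UMIs held 934 CPM of Fabp7 (849.9 to 1025), the middle 86 held 2144 CPM (1956 to 2346) and the 86 with the fewest 1987 CPM (1784 to 2207). This division was chosen after values were seen, and the part of depth in the difference by Rax was not tested. Summed oligodendrocyte precursor genes, at 2.27 CPM with Rax and 96.5 without, and the 5 neuronal genes, at 647 and 997 CPM, also moved with it, and their part was not tested either. Slc1a3 was at 277, 275 and 246 CPM in the deepest, middle and shallowest 86 cells, and its intervals overlap.

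**Figure D3:**
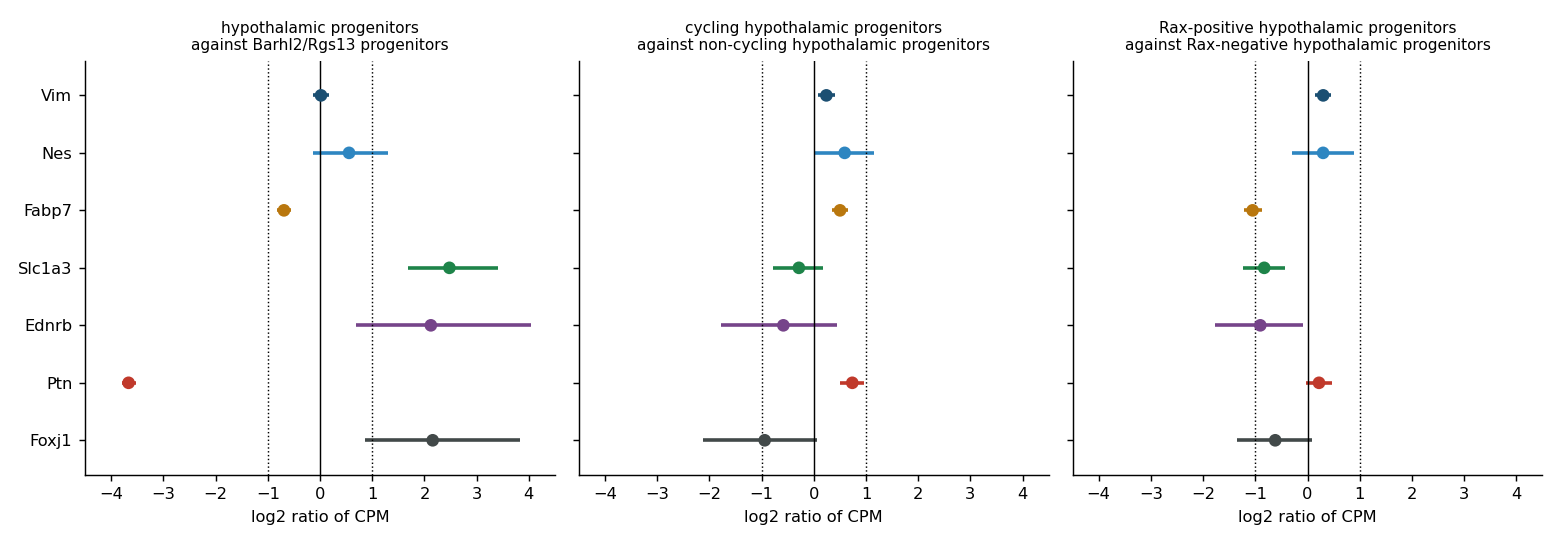
Log2 ratio of CPM of each gene (points) with 95% intervals in 3 comparisons among progenitors, with dotted lines at 2-fold. Ptn stands at -3.67 between hypothalamic and Barhl2/Rgs13 progenitors, no gene passes 2-fold between cycling and non-cycling cells, and Fabp7 (-1.05) does between Rax-positive and Rax-negative cells. With the gates as stated Vim, Nes and Ednrb in the first panel, Slc1a3, Ednrb and Foxj1 in the second and Fabp7, Slc1a3, Ednrb and Foxj1 in the third changed sign.

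How the genes ran beside neuronal RNA was read within the hypothalamic gate, in steps of Stmn2 that were chosen after values were seen. Tubb3, the neuronal tubulin, went from 177 CPM in the 195 cells without Stmn2 to 2551 CPM in the 378 cells with 10 or more UMIs. Over the same steps Vim went from 1641 to 1461, 701, 266 and 176 CPM. Fabp7 was at 1721 CPM (1620 to 1825) with no Stmn2 UMI and already at 722 CPM (618 to 839) with 1, then at 685, 170.2 and 24.2. These 5 steps run from no Stmn2 through 1, 2 to 4 and 5 to 9 to 10 or more UMIs. Slc1a3 went from 300.3 to 190.03, 178, 20.6 and 7.60 CPM, and Nes from 111 to 127, 48.6, 18.0 and 8.07. Ednrb had 48 UMIs in the first step and none among 378 cells in the last, where 3 counts would be 1.42 CPM. Foxj1 went from 92.3 to 2.37 CPM. Ptn changed least, from 699 to 532, 328, 278 and 286 CPM, and its last 3 intervals overlap. Median depth went from 2436 UMIs in the first step to 5383.5 in the last.

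**Figure D4:**
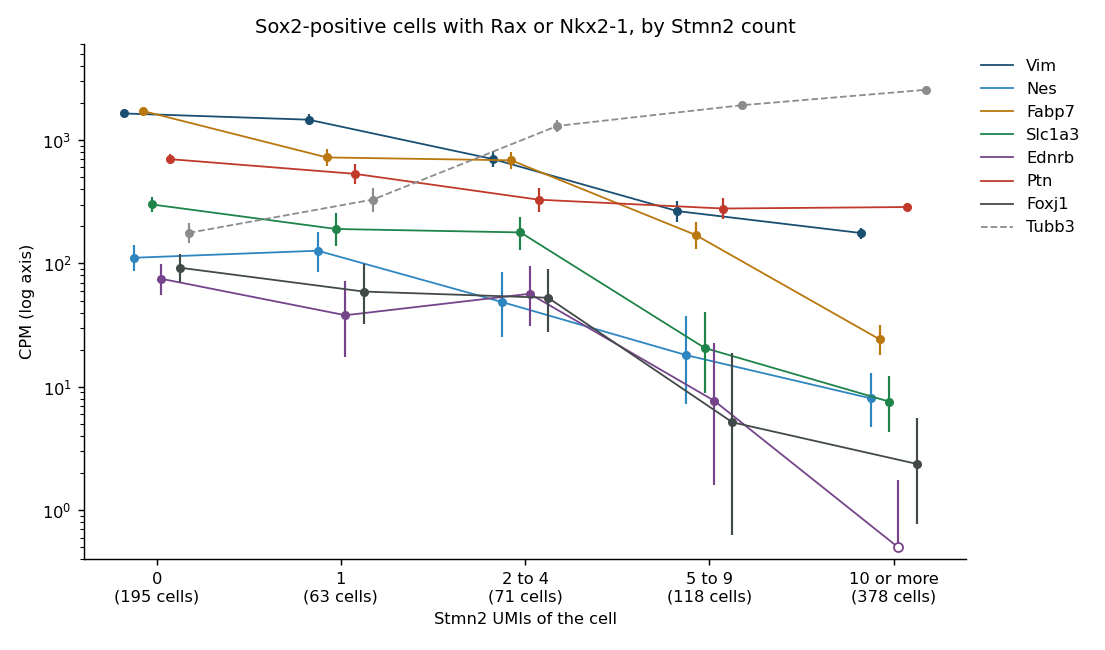
Level in CPM (log axis) of the 7 genes and Tubb3 in Sox2-positive cells with Rax or Nkx2-1, by the cell's Stmn2 UMIs, with exact Poisson 95% intervals; the open point marks no UMI. Vim goes from 1641 to 176 CPM and Fabp7 from 1721 to 24.2, Ptn lies between 278 and 699, and Tubb3 goes from 177 to 2551.

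Neurons with both Sox2 and Rax or Nkx2-1, 567 cells with a median of 4322 UMIs, were set against 2203 neurons with none of these genes and a median of 3350, a split chosen after values were seen. Slc1a3 was at 24.8 against 4.48 CPM (log2 ratio 2.47, 1.86 to 3.10), Foxj1 at 7.30 against 2.30 CPM (1.66, 0.67 to 2.67), Ednrb at 6.201 against 2.05 (1.598, 0.52 to 2.68), Nes at 13.1 against 6.53 (1.01, 0.35 to 1.65), Vim at 236 against 121 (0.96, 0.81 to 1.11) and Fabp7 at 104 against 62.2 (0.75, 0.53 to 0.96). Ptn was lower, at 289 against 377 CPM (-0.38, -0.50 to -0.27). The macrophages held 221 CPM of Vim, 42.7 of Fabp7, 28.5 of Nes, 21.3 of Slc1a3, 21.3 of Ednrb and 7.12 of Foxj1. The levels of Nes, Slc1a3, Ednrb and Foxj1 in both groups of neurons lay below the upper ends of the macrophages' intervals, and the source of the difference between the neurons was not tested.

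Within the 258 hypothalamic progenitors the genes were not spread independently. A cell held a median of 3 of the 7 genes, 60.1% held 3 or more, 24.8% held 5 or more and 10.1% held none, whereas 42.3% of the neurons held none and 0.391% held 5 or more. Thinned to equal depth, 17.4% of the hypothalamic progenitors and 3.08% of the Barhl2/Rgs13 progenitors held 5 or more, the latter 2 of 65 cells. For 3 or more genes the order was the other way, 53.7% against 75.4%, and 12.1% against 0 cells held none. Of the 21 pairs of genes, 9 were found together in more cells than independent detection would give and none in fewer, the rest having intervals that held a ratio of 1. With cells matched in 5 bins of depth it was 7 pairs. Ednrb and Foxj1 stood out, together in 21 cells where 8.05 would be given within bins, a ratio of 2.61 (1.61 to 3.99). Fabp7 was found in 46 of the 48 cells with Foxj1 and in 37 of the 38 with Ednrb, but in 142 of all 258. The intervals of the pairs with Ptn held 1 within bins. Vim was found in 217 of the 258 cells, which leaves no room for a ratio far above 1, so its pairs are not read.

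**Figure D5:**
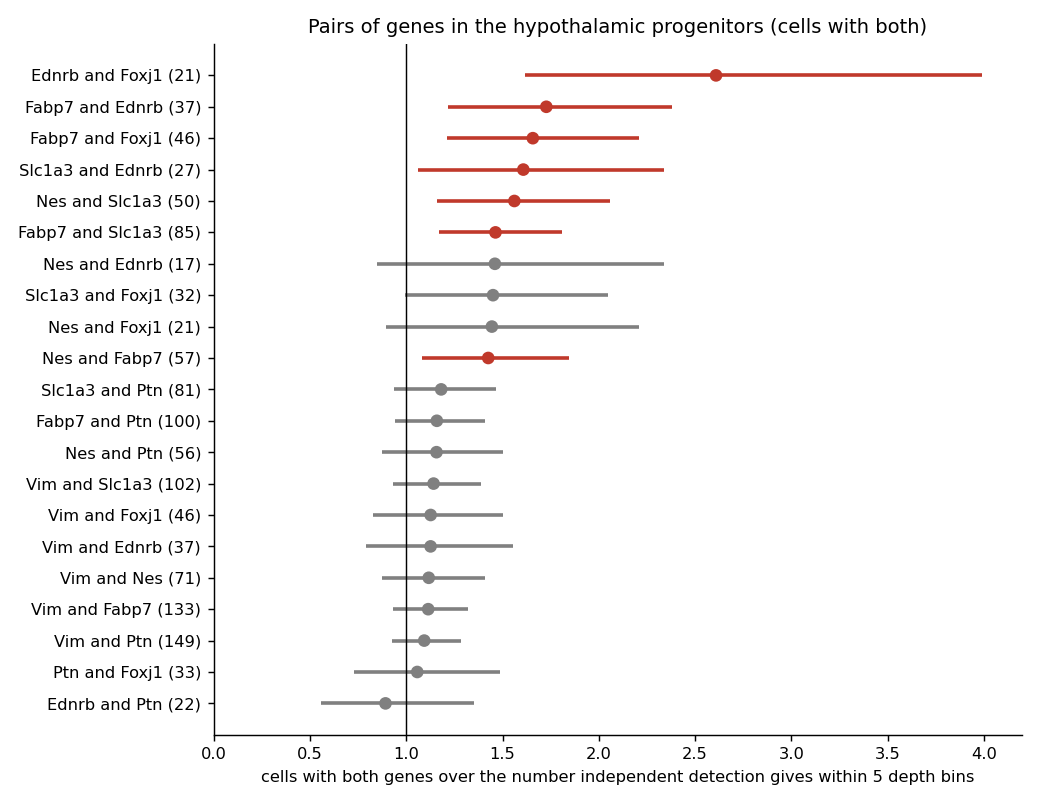
For the 21 pairs of genes in 258 hypothalamic progenitors, the number of cells with both genes over the number that independent detection gives within 5 bins of depth, with Poisson 95% intervals; red marks the 7 intervals above 1. Ednrb with Foxj1 is highest at 2.61, and the pairs with Ptn lie between 0.892 and 1.18.

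This led to a split by Fabp7, chosen after values were seen and therefore a description. The 142 cells with a Fabp7 UMI had a median of 2431.5 UMIs and the 116 without had 2631. Sox2 was at 634 and 474 CPM, Nkx2-1 at 530.3 and 505 and Rax at 169 and 181, and the intervals of the last 2 ratios held 0. Ednrb had 56 UMIs in the cells with Fabp7 and 1 in those without, and Foxj1 71 and 2. Slc1a3 was at 430.3 against 67.4 CPM, Nes at 165 against 51.8, Vim at 2186 against 837 and Ptn at 867 against 384. Of all 5994 genes with at least 20 UMIs in these cells, 12.2% were higher with Fabp7, with an interval above 0, and 7.71% lower. Of the 18 such genes of radial glia and progenitors 13 were higher, Mdk was lower (-0.35, -0.62 to -0.09), and 4 had intervals that held 0. Among the 13, Prom1 reached 20 UMIs only over both groups, with 16 and 4. Dbi was at 4991 against 448 CPM, the metallothionein Mt3 at 4161 against 573 and Ptprz1 at 475 against 57.0. Of 13 such tanycyte genes 7 were higher with Fabp7 (Six3, Six6, Gpr50, Crym, Rgcc, Igfbp5 and Wnt5a), 2 were lower and 4 had intervals that held 0. Gpr50, Crym and Wnt5a had 50, 32 and 51 UMIs with Fabp7 but only 16, 8 and 18 without. These reached 20 UMIs only through the group where they were high, so the tanycyte count is not read against the shares of all genes. The 2 lower were Fgf10, at 48.9 CPM with Fabp7 and 275 without, and Col25a1, at 139 and 207. Lower too were 4 of the 5 neuronal genes, Elavl3 at 69.3 and 213 CPM, Tubb3 at 133 and 327, Snap25 at 8.16 and 38.9 and Syt1 at 16.3 and 51.8. Map2 went the other way, at 467 and 353 CPM (0.41, 0.09 to 0.72). The replication gene Pcna was at 81.6 CPM with Fabp7 and 36.3 without. The part of neuronal RNA in the other values was not tested.

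The 48 cells with Foxj1 were read in the same way, again after values were seen, at a median of 2693.5 UMIs against 2537 in the 210 without. Ednrb was at 155 CPM in them and 36.2 in the rest (log2 ratio 2.101, 1.30 to 2.92), Slc1a3 at 479.8 and 203 (1.24, 0.85 to 1.62), Vim at 2371 and 1343 (0.82, 0.66 to 0.98), and Ptn at 593 and 674 (-0.18, -0.48 to 0.10). The ciliary genes Pifo (1.96, 0.94 to 3.01), Dynlrb2 (2.64, 1.33 to 4.07) and Rfx2 (2.64, 0.74 to 4.82) were higher with Foxj1, from 36, 24 and 12 UMIs in all. Ccdc39 was barely so (1.49, 0.0141 to 2.94). Tekt1 (0.87), Rfx3 (0.54), Rsph1, Rfx4, Ift88, Dnah5 and Spag6l (-0.23) had intervals that held 0. The share of all genes higher in this split was not worked out, so these are single values. As 46 of the 48 cells also held Fabp7, the split is not separate from that by Fabp7. Among tanycyte genes, Fgf10 was lower with Foxj1, at 51.7 against 179 CPM, and Rax did not differ beyond counting error (-0.11, -0.70 to 0.44). Igfbp5, at 254 against 128 CPM, and Six3, at 1030 against 735 CPM, were higher with Foxj1, with intervals above 0. Dio2, the deiodinase that makes active thyroid hormone in tanycytes, was higher as well, but from only 6 UMIs in the 48 cells and 2 in the 210. The other tanycyte genes read in this split had intervals that held 0, and those named are single values too.

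Over 13 groups of cells, the genes whose log2 levels ran most like each member were named by Pearson's r, as a description over groups that share 1 library and differ in depth. Some of these groups also share cells, as 12 of the 74 mural cells met the fibroblast gate. They were Notch1 for Vim (0.894), Tacc1 for Nes (0.932), Gm3764 (0.963), Ptprz1 (0.961) and Rfx4 (0.960) for Fabp7, Creb5 for Slc1a3 (0.947), Shfm1 for Ednrb (0.847), Otx2 for Ptn (0.906) and 3110082J24Rik for Foxj1 (0.940). The comparison ran over 9410 genes with at least 200 UMIs, so the values of r named are the highest of many genes over few groups.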

How the data were processed

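Single-cell RNA-seq of 1 pooled library was analysed from the deposited table of raw counts (UMIs per gene and cell), which the authors made from 3′ reads on mm10. The submitters' processing notes name Cell Ranger 2.1.1, STAR 2.4.0 and Seurat 2.0. Cells with 200 to 4500 genes, at most 10% mitochondrial UMIs and at most 10 Hba-a1 UMIs were kept, with genes found in more than 3 cells. These are the limits the study states, but here they left 6351 of 6465 barcodes, more than the study says it kept, for a reason not given in the sources used here. Depth was 1748 to 16836 UMIs a cell. Doublets were met only by the 4500-gene limit, and no doublet caller was run. Columns left unmatched numbered 0.

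Levels were pooled UMIs scaled to CPM with exact Poisson intervals, shares had Clopper-Pearson intervals, and ratios of 2 groups had exact binomial intervals given their summed UMIs. Genes with at least 20 UMIs over both groups were compared, and 2-fold served as the limit. PCR duplicates were removed through UMIs, yet cells and embryos of 1 pool are no replicates, so intervals cover counting error only. A count of 0 was set against a limit of 3 counts. Genes to be named were all 7 members, the genes of the gates and checks, at most 4 of each list with the most UMIs over all kept cells, and the genes of highest likeness to a member. Every other list gene named, among them Synm, Nefm, Pax6, Col25a1, Dio2, Rfx2, Fgf10 and Gpr50, was chosen after its values were seen. The members and lists were chosen with earlier results of these data known. Work was done in Python 3.11.15 with pandas 2.3.3 for tables, scipy 1.17.1 for intervals, numpy 2.4.6 and, for plots, matplotlib 3.10.9, and the interval script was tested on simulated data. Alternatives covered gates, cell filters, totals, thinning, mean over cells, UMI minimum and fold limit.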

Additional observations from a re-analysis of the deposited data

How the results depend on the processing

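The ratio of Ednrb between hypothalamic and Barhl2/Rgs13 progenitors turned to -0.58 with the gates as stated and to -0.66 with stricter gates, and that of Fabp7 between Rax-positive and Rax-negative cells to 1.34 with the gates as stated. Ratios under 2-fold changed sign too: with the gates as stated 10 of 42 ratios turned in all, among them Slc1a3 (1.49), Ednrb (1.48) and Foxj1 (1.35) by Rax, Slc1a3 (1.08), Ednrb (0.53) and Foxj1 (0.44) by cycling, and Vim (-1.13) and Nes (-1.15) between the Sox2-positive groups. With stricter gates 3 turned. Of the 7 genes, 0 differed by 2-fold between cycling and non-cycling hypothalamic progenitors, against 5 with the gates as stated, 2 with stricter gates, 2 in thinned cells, 1 each at 5% mitochondrial UMIs, without the cell filter and as a mean over cells, and 3 at a 1.5-fold limit. By Rax it was 1, against 6 with the gates as stated, 2 with stricter gates, 2 without the cell filter, 4 at 1.5-fold, and 0 as a mean over cells and in thinned cells; at 5% mitochondrial UMIs the 1 gene was Ednrb (-1.01), not Fabp7 (-0.94). Between hypothalamic and Barhl2/Rgs13 progenitors it was 4 (also with the gates as stated, but then Vim, Nes, Fabp7 and Ptn), against 2 with stricter gates and 2 with at least 100 UMIs, a minimum that 5 of the genes met. Between Barhl2/Rgs13 progenitors and neurons it was 7, against 4 with at least 100 UMIs, which only 4 met. The share of all genes past the limit moved too. By cycling it was 33.9% with the gates as stated, 31.98% with stricter gates and 41.2% at 1.5-fold, against 20.9% at 2-fold with the gates used above. By Rax it was 24.8%, 13.2% and 26.8%, against 9.99%. Between the Sox2-positive groups it was 27.3% with stricter gates and 13.96% at 100 UMIs against 25.1%, and between Barhl2/Rgs13 progenitors and neurons 8.97% at 100 UMIs against 14.5%. The causes were not tested, except that the 100-UMI minimum leaves fewer genes to compare. Gates that rest on 1 UMI miss cells at this depth, and with 1 library no replicate can be left out. No paired analysis was possible because there is 1 library and no second group.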
